A study of Homo sapiens with 8 samples.

Results

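The experiment described here asked how gene expression in Reh cells changed when IKKβ(EE), an IκB kinase β that is active without a stimulus, was added to a short hairpin RNA (shRNA) against CBFA2T3. Its 4 arrays, of 8 in the series, were chosen by their titles: replicates 1 and 2 of cells with the CBFA2T3 shRNA together with IKKβ(EE), named "both constructs" below, and replicates 1 and 2 of cells with the CBFA2T3 shRNA alone. Both groups carry the shRNA, so the constructs differ only in IKKβ(EE). The replicate numbers were taken as pairs. The other 4 arrays, 2 with a control shRNA and 2 with IKKβ(EE) alone, entered the fit to estimate the spread and served for a comparison of the IKKβ(EE) effect with and without the CBFA2T3 shRNA. Reh is an established human B-precursor line, for which the sources disagree on the tumor: the design text has acute lymphoblastic leukemia, the labels non-Hodgkin lymphoma. The labels describe the knockdown and the kinase expression as transient. They do not give the share of cells that took up a construct, the time of harvest, or whether cells with the shRNA alone received an empty expression vector.

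IKKβ is the kinase that marks the IκB inhibitors for degradation and so frees NF-κB dimers to enter the nucleus. NF-κB targets in B-lineage cells include chemokines, survival factors, costimulatory receptors and the inhibitors that shut the pathway down again. CBFA2T3, also known as MTG16 or ETO2, is a corepressor of the ETO family that is recruited by DNA-binding factors of blood progenitors.

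The 8 arrays correlated with each other at 0.937 to 0.991 over the probe sets tested. Of the B-cell precursor markers on the array, 8 of 9 could be tested and 0 were called in this comparison. Among them were PAX5 (12.26 with the shRNA and 12.11 with both constructs, log2), DNTT (13.26 and 13.27) and IGLL1 (12.16 and 11.73). All tested ones but DNTT stood lower with both constructs, IGLL1 the most. VPREB1 stayed below log2 5 on every array. Of the other cell types' markers most were too dim to be tested, and 0 were called among those that could be: 5 of 12 T and NK, 2 of 8 myeloid, 3 of 4 erythroid and megakaryocyte and 1 of 7 stromal and epithelial markers on the array. The summed level of the T and NK list was up to 9.11 with the shRNA and 8.91 and 8.84 with both constructs, that of the myeloid list 7.72 and 7.81 against 7.49 and 7.78, that of the erythroid and megakaryocyte list 7.03 and 7.10 against 7.07 and 6.82, and that of the stromal and epithelial list 7.97 and 7.82 against 7.92 and 7.74 (log2 of summed intensities). CD3E, CD3G, CD2, CD8A, CD14 and EPCAM were under log2 5 on all 8 arrays. The 3′ minus 5′ signal of the ACTB control probe sets, a sign of RNA quality, was 1.52 and 1.81 with the shRNA and 1.65 and 1.51 with both constructs.

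IKBKB, the gene of the transfected kinase, rose on 1 of its 3 probe sets. That probe set read 4.43 and 3.60 (log2) on shRNA replicates 1 and 2 and 11.45 and 11.97 on the arrays with both constructs. The difference was 7.69 ± 0.28 (log2, standard error of the fit, n = 2 pairs, limma adjusted p = 5.71e-05), with the shRNA arrays below log2 5, which is treated here as close to background. The other two IKBKB probe sets differed by 0.26 ± 0.12 (adjusted p = 0.244) and 0.26 ± 0.16 (adjusted p = 0.360). CBFA2T3 was at 8.40 and 8.11 with the shRNA and at 8.23 and 7.83 with both constructs, so the groups overlapped. The difference was -0.23 ± 0.14 (adjusted p = 0.335). With the control shRNA the same probe set read 9.22 and 9.29, so "CBFA2T3-depleted" below means a lower level and not absence. CSF1R, the macrophage colony-stimulating factor receptor, was at 5.28 and 5.15 against 5.18 and 5.02 (difference -0.11 ± 0.17, adjusted p = 0.706). The IKBKB values thus fit the labels of all 4 arrays, and the test did not separate the CBFA2T3 levels.

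Among the genes that passed the test, more rose than fell when IKKβ(EE) was added to CBFA2T3-depleted cells. Of 24481 probe sets tested, 1244 (5.08%) were called at an adjusted p under 0.05, 891 higher (3.64%) and 353 lower (1.44%). Counted once per gene, by the probe set with the highest mean, 636 of 11449 genes were called (5.56%), of which 459 rose (4.01%) and 177 fell (1.55%). Over all genes tested the balance was the other way: 4908 stood higher, the median difference was -0.04, and the arrays of the groups did not overlap for 2325 genes that were higher (20.3%) and 3290 that were lower (28.7%). Called rises were larger than called falls: the median called rise was 1.05 and the median called fall -0.62 on the log2 scale, 97 genes rose by at least 2 and 15 fell by at least 1. Of the risen genes 91 started from a mean under log2 5 with the shRNA, where the fold is uncertain, and 232 from at least log2 7. Every called gene moved the same way in both pairs, which shows little, since a gene whose pairs disagree can hardly be called. In pair 2 the rise was the larger one for 388 of the 459 genes (median rise 1.28, against 0.82 in pair 1), and the fall for 135 of 177 (median -0.70 against -0.53). The IKBKB probe set of the transfected kinase also differed more in pair 2 (8.37) than in pair 1 (7.02). The part of this level in the difference between the pairs was not tested.

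The number of calls depended on the pairing and on single arrays. Without the replicate block 211 probe sets were called (0.862%), 201 higher (0.821%) and 10 lower (0.0408%), all among the 1244. Counts with 1 array left out were 159 without shRNA replicate 2, 315 without shRNA replicate 1, 304 without both constructs replicate 2, 2050 without both constructs replicate 1, 766 with an IKKβ(EE) array removed and 1024 with a control array removed, whichever of the pair it was. Leaving out an array of the compared groups leaves that arm with 1 array, which is then assumed to vary like the others. Of 104 named probe sets that were called, 46 passed without the block and 42 passed with any 1 array left out. The falls were the less firm calls: without shRNA replicate 2, only 2 probe sets were called lower.

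**Figure D1:**
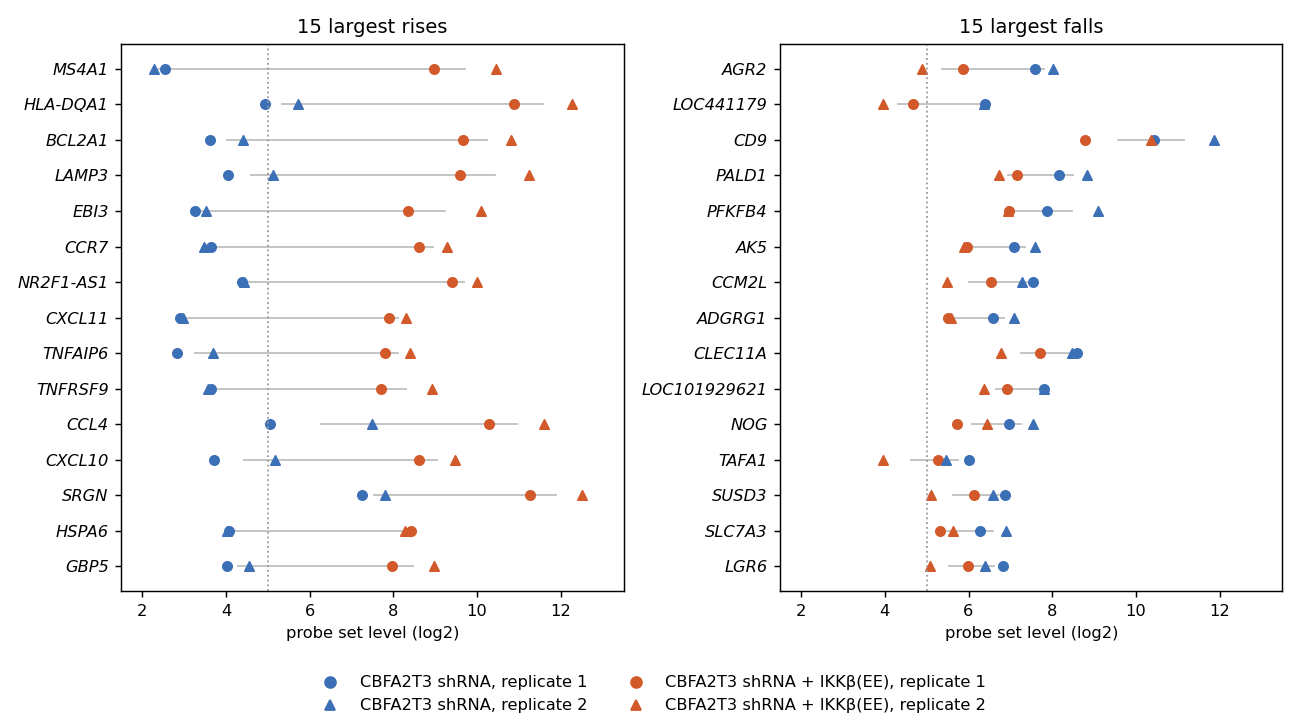
Level on each of the 4 compared arrays for the 15 genes with the largest rises (left) and the 15 with the largest falls (right). The x axis is the log2 probe set level, blue stands for the CBFA2T3 shRNA and orange for the CBFA2T3 shRNA with IKKβ(EE), circles for replicate 1 and triangles for replicate 2, grey lines join group means, and the dotted line marks log2 5. Most rises start left of that line, while CD9 falls by about the same amount in each pair although replicate 1 of the shRNA (10.44) lies close to replicate 2 of both constructs (10.35).

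Beside the transfected IKBKB, the largest rise was that of MS4A1, which encodes the B-cell surface antigen CD20. It read 2.54 and 2.28 with the shRNA and 8.97 and 10.45 with both constructs, a difference of 7.30 ± 0.35 (adjusted p = 0.000102). On its 3 probe sets, all called, the differences ran from 3.52 to 7.30. The survival factor BCL2A1, a BCL2 relative and a known NF-κB target, went from 3.62 and 4.41 to 9.65 and 10.81 (6.22 ± 0.17, adjusted p = 1.59e-05). LAMP3, a lysosomal protein typical of dendritic cells that have matured, went from 4.06 and 5.13 to 9.60 and 11.25 (5.83 ± 0.28, adjusted p = 0.000102). In all 3 genes the arrays with both constructs lay above log2 8 and the shRNA arrays at or near background, so these are switches from little or no signal. NR2F1-AS1, a long noncoding RNA, rose by 5.28 ± 0.22 (adjusted p = 7.21e-05), and TNFAIP6, a hyaluronan-binding protein induced by tumor necrosis factor, by 4.84 ± 0.21 (adjusted p = 7.54e-05). All of these passed with any 1 array left out and without the replicate block.

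Rises from a level of at least log2 7 give better measured folds. SRGN, the core protein of serglycin proteoglycan in secretory granules, went from 7.26 and 7.81 to 11.26 and 12.51 (4.35 ± 0.22, a 20.4-fold rise, adjusted p = 0.000119). CD83, an activation marker of dendritic and B cells, was at 7.48 and 7.52 and then at 9.95 and 11.26 (3.10 ± 0.27, 8.59-fold, adjusted p = 0.00148). Further genes in this class were the kinase SGK1 (3.17 ± 0.25), the OX40 ligand TNFSF4 (2.70 ± 0.23) and the tubulin TUBB2A (2.68 ± 0.29). An immunoglobulin lambda probe set assigned to IGLC1 rose by 3.41 ± 0.20, but 2 of the 4 IGLC1 probe sets were called, and lambda constant genes are near-identical copies that such probes may not separate. SGK1 and TNFSF4 did not pass without the replicate block (adjusted p = 0.0765 and 0.0540), and TUBB2A did not pass without shRNA replicate 1 or 2 (adjusted p up to 0.0874).

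**Figure D2:**
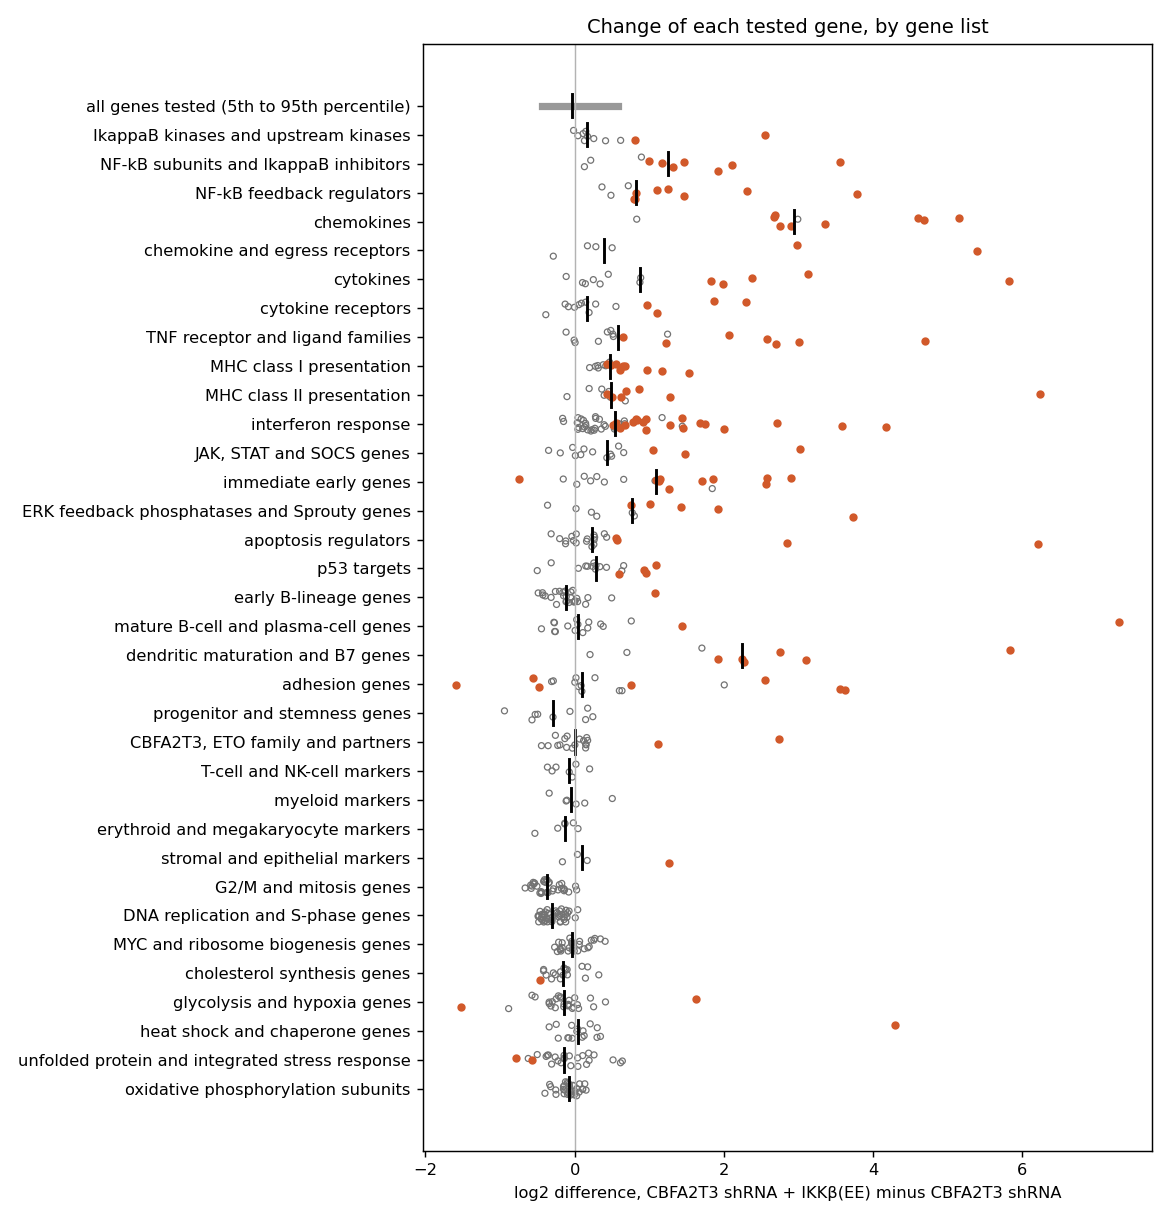
Log2 difference of every tested gene (both constructs minus CBFA2T3 shRNA alone) in each gene list. Each point is a gene, orange where called and open grey where not, black bars are list medians, and the grey bar at the top spans the 5th to the 95th percentile of all genes tested. Called chemokines lie at 2.67 and above, while the mitosis genes cluster to the left of 0 with no called member.

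NF-κB genes themselves were among those that rose. Of 10 tested subunits and IκB inhibitors 7 were called higher and 0 lower (median difference 1.25, against -0.04 over all genes tested), 2 without the replicate block. Over all genes tested 4.01% were called higher and 1.55% lower, or 104 and 5 of 11449 genes without the block. NFKBIZ, a nuclear IκB protein, went from 6.48 and 7.22 to 10.02 and 10.80 (3.56 ± 0.18, adjusted p = 0.000112). The noncanonical subunits NFKB2 (2.12 ± 0.34, adjusted p = 0.0203) and RELB (1.92 ± 0.15, adjusted p = 0.00103) rose, as did the main feedback inhibitor NFKBIA, from 10.61 and 10.74 to 11.76 and 12.51 (1.46 ± 0.17, adjusted p = 0.00633). RELA, the usual transactivating subunit, stood at 0.13 ± 0.12 (adjusted p = 0.529) and was chosen for mention after its value was seen. Of 11 genes listed as feedback regulators 8 were called higher (median 0.82, 2 without the block). TRAF1, a signalling adaptor, went from 4.85 and 5.53 to 8.44 and 9.52 (3.79 ± 0.21, and 1.71 on a second probe set). TNFAIP2 rose by 2.30 ± 0.10, the deubiquitinase CYLD by 1.46 ± 0.10 and TNFAIP8 by 1.25 ± 0.17. TNFAIP3 and TNIP1 of the same list, chosen for mention after their values were seen, were called higher at 0.82 and 0.79. Of 11 IκB kinases and upstream kinases MAP3K8 (2.55 ± 0.26), the kinase TPL2, and RIPK2 (0.81 ± 0.16) were called higher (median 0.17). NFKBIZ, RELB, TRAF1, TNFAIP2, CYLD and MAP3K8 passed with any 1 array left out. Without the block CYLD (adjusted p = 0.0579), NFKB2 (0.135), RELB (0.151), RIPK2 (0.161) and TNFAIP8 (0.163) did not pass. NFKBIA lost its call without shRNA replicate 2 (adjusted p = 0.111), NFKB2 and TNFAIP8 without shRNA replicate 1 or 2 (up to 0.228 and 0.154), and RIPK2 without any array but both constructs replicate 1 (up to 0.294).

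Of 17 chemokines on the array 10 could be tested, and the other 7 did not reach log2 5 on 2 arrays. Of the 10 tested, 8 rose and 0 fell (median 2.95, beside 4.01% of all genes called higher), 7 of them without the replicate block. A gene dim without IKKβ(EE) could enter the test only by being high with it, in this list and the others. That can raise a list's share called and its median. CXCL11, a ligand of CXCR3, read 2.91 and 2.97 with the shRNA and 7.89 and 8.31 with both constructs (5.16 ± 0.25, adjusted p = 0.000102). CXCL10, a second CXCR3 ligand, went from 3.70 and 5.17 to 8.61 and 9.46 (4.60 ± 0.32). The monocyte and T-cell attractants CCL4 and CCL5 went from 5.05 and 7.48 to 10.28 and 11.61 (4.68 ± 0.50, adjusted p = 0.00400) and from 7.75 and 8.51 to 11.15 and 11.82 (3.36 ± 0.15). CXCL8, which attracts neutrophils, rose by 2.90 ± 0.23 (adjusted p = 0.000959), but its shRNA arrays lay far apart (6.19 and 7.99), and the call was lost without the replicate block (adjusted p = 0.189). Among 6 tested chemokine and egress receptors CCR7, which guides lymphocytes and dendritic cells to lymph nodes, went from 3.64 and 3.47 to 8.62 and 9.29 (5.40 ± 0.23, adjusted p = 7.21e-05), and GPR183, an oxysterol receptor of B-cell positioning, rose by 2.98 ± 0.45 (adjusted p = 0.0154). GPR183 lost its call without the block (adjusted p = 0.0587) and without shRNA replicate 1 or 2 (up to 0.203), and the other genes with values here kept theirs with any 1 array left out.

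Of the 15 largest rises 9 had a promoter in the table, and the 4 shown here were picked because they hold a match to a motif of NF-κB or of the interferon response. The other 5 hold neither. They cover 250 bases before to 50 after the annotated start, from RefSeq on GRCh38.p14, all on the minus strand and printed 5′ to 3′. CXCL11 lies at chr4:76036021-76036320, TNFRSF9 at chr1:7940790-7941089, CXCL10 at chr4:76023448-76023747 and BCL2A1 at chr15:79971147-79971446. Capitals mark matches to the NF-κB consensus motif or to the interferon-stimulated response element, each searched on both strands.
CXCL11: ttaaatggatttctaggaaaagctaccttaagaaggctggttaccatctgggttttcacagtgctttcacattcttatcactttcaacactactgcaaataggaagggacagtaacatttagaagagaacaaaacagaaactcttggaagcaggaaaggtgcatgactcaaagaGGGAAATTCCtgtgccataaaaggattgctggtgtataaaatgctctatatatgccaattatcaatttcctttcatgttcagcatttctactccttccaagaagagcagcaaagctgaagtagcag
TNFRSF9: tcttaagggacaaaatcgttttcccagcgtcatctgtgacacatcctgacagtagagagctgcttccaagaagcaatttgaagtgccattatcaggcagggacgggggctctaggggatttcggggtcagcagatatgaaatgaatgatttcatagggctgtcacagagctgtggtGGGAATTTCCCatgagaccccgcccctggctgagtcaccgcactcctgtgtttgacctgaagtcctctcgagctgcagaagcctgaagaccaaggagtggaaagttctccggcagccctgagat
CXCL10: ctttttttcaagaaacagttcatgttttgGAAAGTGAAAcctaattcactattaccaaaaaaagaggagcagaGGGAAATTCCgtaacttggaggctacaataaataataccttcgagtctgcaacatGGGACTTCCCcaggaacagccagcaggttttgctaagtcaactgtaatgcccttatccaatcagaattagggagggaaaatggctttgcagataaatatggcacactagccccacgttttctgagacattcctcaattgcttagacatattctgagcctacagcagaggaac
BCL2A1: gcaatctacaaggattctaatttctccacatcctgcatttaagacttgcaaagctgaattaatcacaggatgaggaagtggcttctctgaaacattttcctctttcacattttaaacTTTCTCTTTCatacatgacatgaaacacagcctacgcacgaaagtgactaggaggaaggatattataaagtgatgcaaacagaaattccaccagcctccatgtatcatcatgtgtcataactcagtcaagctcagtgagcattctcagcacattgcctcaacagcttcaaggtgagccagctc
The NF-κB match of CXCL11 started at -76 relative to the start, those of CXCL10 at -177 and -122, and TNFRSF9 had 2 overlapping matches, 1 on each strand, at -74 and -73. Matches to the interferon element started at -221 in CXCL10 and at -133 in BCL2A1, the latter on the opposite strand. Over all genes called higher, 45 of the 342 with a promoter in the table held an NF-κB match (13.2%), against 12 of 143 called lower (8.39%), 632 of 9361 tested (6.75%) and 1562 of 27305 promoters in all (5.72%). The interferon element was found in 35 of 342 called higher (10.2%), 2 of 143 called lower (1.4%), 274 of 9361 tested (2.93%) and 996 of 27305 in all (3.65%). A match describes letters in this window and not a bound site.

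Cytokine genes rose in part. Of 18 on the array 13 could be tested. Among these 5 were called higher and 0 lower (median 0.88, beside 4.01% of all genes called higher), 4 without the block. Members such as EBI3 and IL6 entered the test only through arrays with IKKβ(EE), which can raise this share. EBI3, the shared subunit of IL-27 and IL-35, went from 3.26 and 3.53 to 8.34 and 10.10 (5.82 ± 0.46, adjusted p = 0.000934), a wide spread between the arrays with both constructs. IL23A, the p19 subunit of IL-23, went from 5.26 and 5.23 to 7.56 and 9.17 (3.12 ± 0.37, adjusted p = 0.00638). IL6 rose by 2.38 ± 0.19 and IL15, a growth factor of NK and memory T cells, by 1.98 ± 0.19. Among 14 cytokine receptors IL21R (2.30 ± 0.26), IL4R (1.87 ± 0.32), IL15RA (1.10 ± 0.20) and CSF2RB (0.97 ± 0.18), the common beta chain of the IL-3, IL-5 and GM-CSF receptors, were called higher, with 0 of the 14 called without the block. IL15 did not pass without the block (adjusted p = 0.0624). EBI3 and IL6 passed with any 1 array left out, IL23A, IL15 and IL21R lost the call without shRNA replicate 2 (adjusted p = 0.118, 0.0581 and 0.0971), and IL4R, IL15RA and CSF2RB lost it without either shRNA array or without both constructs replicate 2 (up to 0.282).

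Of 24 genes of the TNF receptor and ligand families on the array 16 could be tested. Of these 7 were called higher and 0 lower (median 0.58, beside 4.01% of all genes called higher), 4 without the block. Members such as TNFRSF9 entered the test only through arrays with IKKβ(EE), which can raise this share. TNFRSF9 (4-1BB), a costimulatory receptor, went from 3.65 and 3.58 to 7.69 and 8.93 (4.70 ± 0.29, adjusted p = 0.000338). A second TNFRSF9 probe set rose by 2.51. The death receptor gene FAS went from 5.82 and 5.99 to 8.36 and 9.48 (3.01 ± 0.32, adjusted p = 0.00384), on all 4 of its tested probe sets. CD40, the receptor through which T cells activate B cells, went from 7.23 and 7.52 to 9.38 and 10.52 (2.57 ± 0.20, adjusted p = 0.000885). FAS lost its call without shRNA replicate 2 (adjusted p = 0.0862), while TNFRSF9, TNFSF4 and CD40 passed with any 1 array left out. Of 14 genes of dendritic maturation and the B7 family on the array 9 could be tested. Members such as LAMP3 and CCL22 entered only through arrays with IKKβ(EE), which can raise the share called. Of the 9 tested, 6 were called higher (median 2.25, 5 without the block). Beside LAMP3 and CD83 these included the actin-bundling gene FSCN1 (2.28 ± 0.27, adjusted p = 0.00580, lost without shRNA replicate 2 at 0.108) and CCL22, a ligand of CCR4, which went from 4.25 and 4.34 to 6.64 and 7.47 (2.75 ± 0.23, adjusted p = 0.00138).

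Of the antigen presentation genes 9 of 16 in the class I pathway and 7 of 14 in the class II pathway were called, all higher. Over all genes tested 4.01% were called higher. In the class I pathway all 16 tested genes were higher on both arrays with both constructs than on either shRNA array, where 20.3% of all genes were (median 0.48, 3 called without the block). TAP1, a subunit of the peptide transporter, went from 9.85 and 10.10 to 11.59 and 11.42 (1.53 ± 0.14, adjusted p = 0.00200). NLRC5, the class I transactivator, rose by 1.17 ± 0.18 (adjusted p = 0.0161), HLA-F by 0.97 ± 0.12 and TAP2 by 0.67 ± 0.11, the last on 1 of 3 probe sets. In the class II pathway the median was 0.49, and 1 gene was called without the block. HLA-DQA1 went from 4.94 and 5.73 to 10.88 and 12.27 (6.24 ± 0.37, adjusted p = 0.000311), and HLA-DOB (1.28 ± 0.23), HLA-DQB1 (0.87 ± 0.10) and HLA-DRB1 (0.69 ± 0.12) followed. HLA genes are alike in sequence, so probe sets may share signal. CIITA, the class II transactivator, stood at -0.10 ± 0.16 (adjusted p = 0.726) and was chosen for mention after its value was seen. Without the block TAP2 (adjusted p = 0.0765), HLA-DRB1 (0.0955), HLA-DOB (0.182) and HLA-DQB1 (0.195) did not pass. TAP1 and HLA-DQA1 passed with any 1 array left out. NLRC5 lost its call without shRNA replicate 1 or 2 (up to 0.0984), HLA-F without shRNA replicate 1 (0.0550), HLA-DQB1 without shRNA replicate 2 or both constructs replicate 2 (up to 0.0985), and TAP2, HLA-DOB and HLA-DRB1 without either shRNA array or both constructs replicate 2 (up to 0.228).

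Of 50 interferon response genes 19 were called higher and 0 lower (median 0.54, beside 4.01% of all genes called higher), 6 without the block. Of 5 tested guanylate-binding protein genes 4 were called: GBP5 went from 4.03 and 4.55 to 7.96 and 8.97 (4.17 ± 0.25, adjusted p = 0.000296), GBP2 from 4.96 and 5.52 to 8.24 and 9.41 (3.58 ± 0.33, adjusted p = 0.00194) and GBP4 from 5.13 and 5.95 to 8.48 and 8.01 (2.71 ± 0.28), GBP1 rose by 1.75, and GBP3, at 0.54, was not called. IFIH1, the RNA sensor MDA5, rose from 8.42 and 9.03 to 10.38 and 11.07 (2.00 ± 0.15, adjusted p = 0.000828). GBP5, GBP2, GBP4 and IFIH1 passed without the block and with any 1 array left out. RSAD2 and ISG15, classical antiviral genes, did not pass (1.17 ± 0.32, adjusted p = 0.0797, and 0.59 ± 0.18, adjusted p = 0.104). Their shRNA means were 9.58 and 11.88, and both were chosen for mention after their values were seen. The same holds for the next 5 genes of this list. OASL (1.68), IFIT2 (1.28) and MX1 (0.68) were called higher, while MX2 (-0.15) and OAS1 (-0.16) were not called. In the JAK, STAT and SOCS list 3 of 15 were called higher: the inhibitor SOCS1 (3.02 ± 0.35), STAT5A (1.48 ± 0.19) and JAK3 (1.06 ± 0.19), with adjusted p of 0.00564, 0.00861 and 0.0258. Without the block SOCS1 passed, and STAT5A and JAK3 did not (adjusted p = 0.122 and 0.140). All 3 lost their calls without shRNA replicate 1 or 2 (up to 0.254), JAK3 also without both constructs replicate 2.

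Immediate early genes respond within minutes to growth and stress signals. Of 19 tested, 9 were called higher and 1 lower (median 1.09), with 1 called without the block. Over all genes tested 4.01% were called higher and 1.55% lower. EGR1 went from 6.70 and 6.93 to 8.57 and 10.20 (2.57 ± 0.44, adjusted p = 0.0235), EGR3 rose by 2.90 ± 0.31, the small MAF protein MAFF by 2.58 ± 0.18 and IER3 by 1.85 ± 0.22. KLF2, a quiescence factor of lymphocytes, fell by 0.75 ± 0.15 (adjusted p = 0.0400), although its arrays overlapped (8.16 and 9.04 against 7.24 and 8.47). FOS stood at -0.15 ± 0.26 (adjusted p = 0.746) and was chosen for mention after its value was seen. Among 11 ERK feedback phosphatases and Sprouty genes 5 were called higher (median 0.77, 1 without the block). DUSP5, a nuclear ERK phosphatase, went from 3.31 and 3.31 to 6.24 and 7.85 (3.73 ± 0.38, adjusted p = 0.00322), and DUSP10 (1.92 ± 0.20), DUSP4 (1.42 ± 0.31) and SPRED2 (1.01 ± 0.19) rose. Without the block IER3 (adjusted p = 0.0316) and DUSP5 (0.0139) passed, and MAFF (0.0772), EGR1 (0.0918), EGR3 (0.141), DUSP4 (0.151), DUSP10 (0.166), SPRED2 (0.188) and KLF2 (0.622) did not. With any 1 array left out MAFF passed. EGR3, IER3 and DUSP5 lost the call without shRNA replicate 2 (adjusted p = 0.0885, 0.0877 and 0.0758), and EGR1, KLF2, DUSP10, DUSP4 and SPRED2 without at least 2 of the 8 arrays (up to 0.342).

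Apoptosis regulators had 4 of 21 called, all higher (median 0.23, 2 without the block), beside 4.01% of all genes called higher. CFLAR, the caspase-8 inhibitor FLIP, rose by 2.85 ± 0.21 (adjusted p = 0.000685). Of its 12 probe sets 8 were called, and the differences over the 12 ran from 0.30 to 2.85. Called beside CFLAR were BCL2A1, CASP8 (0.57 ± 0.11) and the BH3-only gene PMAIP1 (0.55 ± 0.11). Among 17 p53 targets 4 were called higher (median 0.29, 0 without the block): PLK2 (1.10 ± 0.21), GADD45A (0.95 ± 0.21), MDM2 (0.92 ± 0.14, on 5 of 8 probe sets) and BTG1 (0.59 ± 0.12, whose arrays overlapped). CASP8 and PMAIP1 did not pass without the block (adjusted p = 0.135 and 0.287). BCL2A1 and CFLAR passed with any 1 array left out, and the other 6 genes lost their calls without shRNA replicate 2 and without both constructs replicate 2, with adjusted p up to 0.328 over the 8 arrays.

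Of 28 early B-lineage genes 1 was called, beside 5.56% of all genes tested: the Src-family kinase LYN (1.07 ± 0.18, adjusted p = 0.0240), and the median was -0.11. Of 17 tested mature B-cell and plasma-cell genes MS4A1 and the plasma-cell factor IRF4 (1.44 ± 0.28, adjusted p = 0.0340) were called, and the median was 0.04. LYN and IRF4 did not pass without the block (adjusted p = 0.115 and 0.170). LYN lost the call without either shRNA array or both constructs replicate 2 (up to 0.240), and IRF4 without any array but both constructs replicate 1 (up to 0.294). Of 9 progenitor genes 0 were called (median -0.29). PROM1 (CD133) stood at -0.94 ± 0.26 (adjusted p = 0.0835) and MECOM at 0.24 ± 0.10 (adjusted p = 0.198). Among 19 tested genes of CBFA2T3, its family and its partners, RUNX2, a RUNX transcription factor, went from 3.25 and 4.56 to 6.22 and 7.06 (2.74 ± 0.20, adjusted p = 0.000685), and ID2, an inhibitor of E proteins, rose by 1.12 ± 0.16 (adjusted p = 0.0142). RUNX2 passed with any 1 array left out, and ID2 did not without either shRNA array or both constructs replicate 2 (up to 0.157), nor without the block (0.188). The median of that list was 0.00.

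Adhesion genes moved both ways, with 4 of 18 called higher and 3 lower (median 0.09), or 2 higher and 0 lower without the block. Over all genes tested 4.01% were called higher and 1.55% lower. ICAM1, the ligand of the integrin LFA-1, went from 6.23 and 6.22 to 9.14 and 10.56 (3.62 ± 0.32, adjusted p = 0.00163). All 3 of its probe sets were called, with differences from 1.63 to 3.62. The lymphocyte receptors SLAMF7 (3.55 ± 0.15, adjusted p = 7.21e-05) and SLAMF1 (2.55 ± 0.27) and the CD2 ligand CD58 (0.75 ± 0.13) rose. The tetraspanin CD9 fell from 10.44 and 11.87 to 8.78 and 10.35 (-1.58 ± 0.14, adjusted p = 0.00196), ICAM2 fell by 0.56 ± 0.10 and CD48, the ligand of the SLAM receptor CD244, by 0.48 ± 0.10. Without the replicate block CD9 did not pass (adjusted p = 0.445), and within the pairs its difference was -1.65 and -1.52. SLAMF1 (0.163), CD58 (0.288), ICAM2 (0.254) and CD48 (0.392) did not pass without the block either. ICAM1, SLAMF7 and CD9 passed with any 1 array left out, SLAMF1 lost its call without shRNA replicate 1 or 2 (up to 0.0559), and CD58, ICAM2 and CD48 without at least 3 of the 8 arrays (up to 0.247).

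Apart from CD9, the largest falls were those of AGR2, a protein disulfide isomerase of secretory cells, from 7.58 and 8.01 to 5.87 and 4.88 (-2.43 ± 0.29, adjusted p = 0.00580), and of the transcript LOC441179 (-2.06 ± 0.23, adjusted p = 0.00516). PALD1 (-1.56 ± 0.25), the glycolytic regulator PFKFB4 (-1.53 ± 0.32), the adenylate kinase AK5 (-1.42 ± 0.31), CCM2L (-1.40 ± 0.26, on 1 of 2 probe sets, the other at -0.02), the adhesion receptor ADGRG1 (-1.30 ± 0.18) and the growth factor CLEC11A (-1.28 ± 0.22, on 2 of 3 probe sets) followed. LOC101929621 (-1.16 ± 0.22), the BMP antagonist NOG (-1.16 ± 0.23), TAFA1 (-1.13 ± 0.23), SUSD3 (-1.11 ± 0.21), the cationic amino acid transporter SLC7A3 (-1.10 ± 0.13) and LGR6 (-1.07 ± 0.22) completed the 15. Of these 15, CD9 and AGR2 passed with any 1 array left out. The others lost the call without shRNA replicate 2, most also without shRNA replicate 1 or both constructs replicate 2 (adjusted p up to 0.324), and only AGR2 and LOC441179 passed without the block.

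In the lists of growth and metabolism few genes passed. Over all genes tested 5.56% were called, so counts this small say little about these lists. Of 34 G2/M and mitosis genes 0 were called, 32 stood lower, and the median was -0.38. On 27 of them both arrays with both constructs lay below both shRNA arrays, where 28.7% of all genes did. Their mean level was 10.38 and 10.38 with the shRNA and 10.22 and 9.84 with both constructs, so replicate 2 held most of the difference. TPX2, a spindle factor, stood at -0.66 ± 0.16 (adjusted p = 0.0609). Of 45 DNA replication genes 0 were called, 43 stood lower, and the median was -0.30. Only 10 of these had arrays that did not overlap, and MCM5, a subunit of the replicative helicase, had the lowest value (-0.49 ± 0.16, adjusted p = 0.109). MYC and ribosome biogenesis genes had 0 of 29 called (median -0.03) and oxidative phosphorylation subunits 0 of 32 (median -0.07), beside a median of -0.04 over all genes. Cholesterol synthesis genes had 1 of 19 called, MVD, lower (-0.47 ± 0.10, adjusted p = 0.0475). Glycolysis and hypoxia genes had PFKFB4 called lower and the peptide hormone ADM (1.63 ± 0.30, adjusted p = 0.0299) higher among 28. In the stress response list PHGDH, the first enzyme of serine synthesis, fell by 0.79 ± 0.12 (adjusted p = 0.0158) and CHAC1 by 0.57 ± 0.11 (adjusted p = 0.0307), among 26. ADM, PHGDH, CHAC1 and MVD did not pass without the block (adjusted p = 0.193, 0.0701, 0.236 and 0.148), nor without either shRNA array or both constructs replicate 2 (up to 0.318). In bulk samples fewer cells in a phase and less RNA per cell cannot be told apart.

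At the share of 5.56% called over all genes, lists as short as those of other lineages would hold few calls or none, so their counts show little. T-cell and NK-cell markers had 0 of 7 tested genes called (GATA3 at 0.20 ± 0.22, CD247 at -0.36 ± 0.14), myeloid markers 0 of 6 (NCF1 at 0.50 ± 0.15, CEBPB at -0.34 ± 0.11), and erythroid and megakaryocyte markers 0 of 6 (EPOR at 0.05 ± 0.13, GP9 at -0.53 ± 0.13). The smooth muscle actin ACTA2, kept in the stromal list, rose by 1.26 ± 0.24 (adjusted p = 0.0304, and 0.165 without the block) and lost its call without either shRNA array or both constructs replicate 2 (up to 0.254), while 10 other members of that list of 14 did not reach the level needed for the test.

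**Figure D3:**
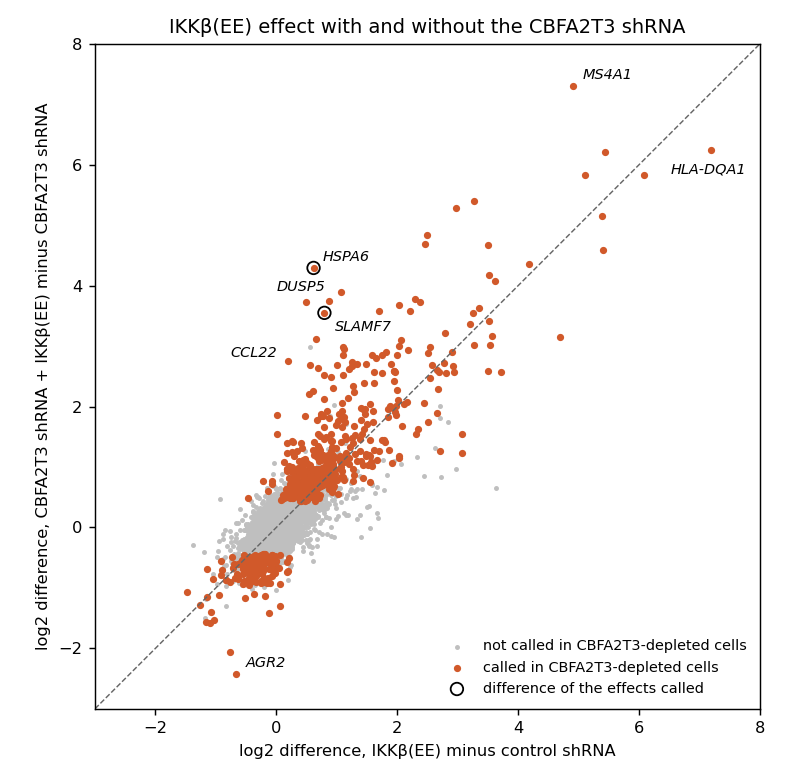
Effect of IKKβ(EE) on each of 11449 genes in CBFA2T3-depleted cells (y axis) against its effect in cells without that shRNA (x axis), both as log2 differences. Orange points were called in CBFA2T3-depleted cells, grey points were not, circles mark genes whose 2 effects differed by test, and the dashed line marks equal effects. HSPA6 and SLAMF7 lie far above the line, at 4.29 against 0.62 and 3.55 against 0.80.

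The effect of IKKβ(EE) in CBFA2T3-depleted cells was then set against its effect in cells without that shRNA, which uses 4 other arrays (IKKβ(EE) minus control shRNA). That effect called 831 probe sets (3.39%), 724 of them higher (2.96%). Over 11449 genes the effects correlated at r = 0.82, as a description, since genes are not independent replicates and all arrays share a normalization and the replicate numbers. Of the 459 genes that rose, 454 were also higher with IKKβ(EE) alone and 230 were called there (50.1%), where 3.17% of all genes were called higher. In the other direction the 230 were 63.4% of the 363 called higher by IKKβ(EE) alone. Of the 177 that fell, 168 were lower with IKKβ(EE) alone and 21 were called there (11.9%, or 36.2% of the 58 called lower), against 0.507% of all genes. Both effects took the spread of each probe set from the same fit, which favours shared calls. Over the genes called higher in depleted cells the median effect of IKKβ(EE) alone was 0.78, but these genes were chosen by their effect in depleted cells, so the smaller value is not evidence of a weaker effect.

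A test of the difference between the effects called 3 probe sets (0.0123%), all larger in CBFA2T3-depleted cells and 2 of them with a single gene symbol (0.0175% of genes), and 1358 had an unadjusted p under 0.05. The first named gene was HSPA6, a strictly stress-inducible HSP70. It read 4.07 and 4.03 with the shRNA and 8.42 and 8.27 with both constructs (4.29 ± 0.17), while the means were 4.37 with the control shRNA and 4.99 with IKKβ(EE) alone (0.62 ± 0.16). The difference of the effects was 3.68 ± 0.24 (adjusted p = 0.00868). The second was SLAMF7, a SLAM receptor of lymphocytes, which read 3.15 and 3.51 against 6.74 and 7.02, with means of 3.29 and 4.08 in the cells without the shRNA (difference of the effects 2.76 ± 0.21, adjusted p = 0.0210). The third probe set, which had the smallest adjusted p of the 3, has several gene symbols and is not named. It read 2.74 and 3.21 with the shRNA and 7.27 and 7.80 with both constructs, with means of 2.80 and 3.69 without the shRNA (difference of the effects 3.67 ± 0.17, adjusted p = 0.00147). In both named genes the arrays with both constructs stood above all 6 others, and the level in those others was at or near background. Without shRNA replicate 1 or 2 neither passed (HSPA6 at adjusted p = 0.159 and 0.157, SLAMF7 at 0.180 and 0.157), and SLAMF7 also failed without control replicate 1 or 2 (0.136 and 0.0954) or IKKβ(EE) replicate 1 or 2 (0.0604 and 0.112). HSPA6 was the sole member called among 17 tested heat shock and chaperone genes (median 0.04). HSPA1A, HSPA1B and HSPA8 had no probe set with a single gene symbol and were not tested as genes, so that count does not cover them. Probe sets with several symbols, the third one above among them, are outside the count too. It therefore does not show that HSPA6 rose alone. On a second HSPA6 probe set the difference of the effects was 2.05 ± 0.22 (adjusted p = 0.0669).

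Other contrasts between the effects were large but did not pass. DUSP5 rose by 3.73 with the shRNA and stood at 0.49 without it (difference 3.25, adjusted p = 0.245), and CCL22 at 2.75 and 0.19 (difference 2.56, adjusted p = 0.150). MS4A1 differed by 2.39 (adjusted p = 0.426) and CCR7 by 2.13 (adjusted p = 0.208). The IKBKB probe set of the transfected kinase was itself 1.07 ± 0.40 higher in this difference (adjusted p = 0.842), and its part in the contrasts was not tested. With 2 arrays a group a difference of this kind had to be large to pass, and a p above the threshold does not show that the effects were alike.

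**Figure D4:**
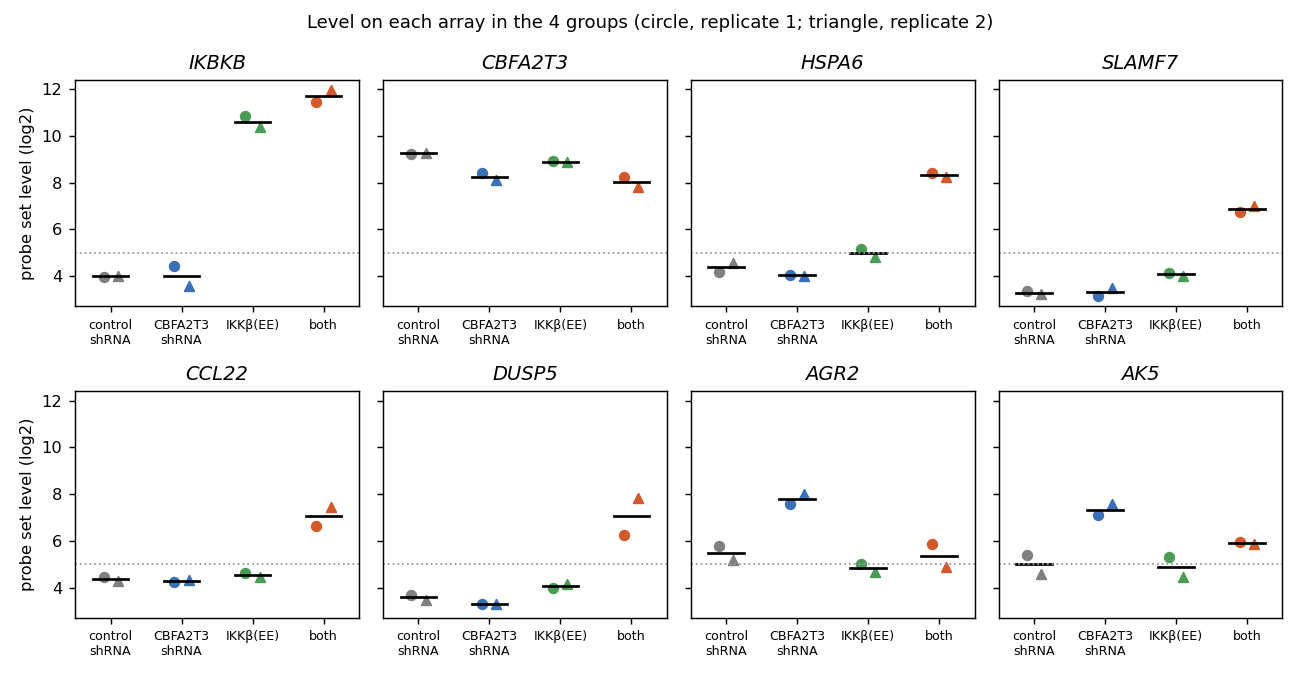
Level on each of the 8 arrays for 8 genes, by group, on 1 probe set per gene (for IKBKB the one that rose). The y axis is the log2 level, circles are replicate 1, triangles replicate 2, bars group means, and the dotted line log2 5. HSPA6, SLAMF7, CCL22 and DUSP5 stand high only in the group with both constructs, and AGR2 and AK5 stand high with the CBFA2T3 shRNA alone.

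Several genes with large falls were higher with the CBFA2T3 shRNA than in the other groups. AGR2 had means of 5.49 (control shRNA), 7.80 (CBFA2T3 shRNA), 4.83 (IKKβ(EE) alone) and 5.37 (both constructs). AK5 had 4.99, 7.34, 4.88 and 5.92, and ADGRG1 had 4.97, 6.84, 5.03 and 5.54. The same shRNA arrays stand in the comparison with control and in this one, so a high reading on them raises one difference and lowers the other. The values are therefore given side by side, with no test of a reversal. The difference of the IKKβ(EE) effects was -1.77 for AGR2 (adjusted p = 0.521), -1.30 for AK5 (0.778) and -1.36 for ADGRG1 (0.312).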

How the data were processed

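Expression was measured on Affymetrix U133 Plus 2.0 arrays, 8 in all. Per the submitters' processing notes the authors deposited RMA output, that is log2 intensity per probe set after background correction and normalization to a common distribution. The sources used here do not name its version. Values reached 14.6, which fits base 2 only. RMA removes shifts that affect most transcripts one way.

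Controls (62 of 54675 probe sets) and 30132 probe sets that stayed under log2 5 on all but at most 1 array were left out. GEO's platform annotation named a single gene for 41097 probe sets; 1801 had several and 11777 had none. Promoters were found for 9361 of the 11449 genes tested.

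limma 3.58.1 (R 4.3.3) was fitted over all 8 arrays to the remaining 24481 probe sets, with a mean for each group and the replicate number as a block (3 residual degrees of freedom). Tests were two-sided, Benjamini-Hochberg adjusted p-values cover all 24481, and ± gives the standard error. The pairing is part of the definition of the experiment. The labels do not state what a number stands for, and the difference between replicates correlated between groups, across probe sets, at 0.344 to 0.577 in all 6 pairs of groups. The arrays are labelled biological replicates, with no word on separate cultures, so p-values measure the spread between these arrays. Their number limits the precision (median standard error 0.12). A 2 against 2 exact permutation test that ignores the pairs has a smallest p of 0.333, and keeping the pairs makes it larger. The fit was also run on simulated data with independent noise drawn at the fitted spread. That run does not bear on the shifts in calls with 1 array left out.

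The comparison, the 34 gene lists and the naming rule were chosen with earlier results of these data known. Named were the 15 largest rises and falls and the 8 largest rises from at least log2 7 among called genes with arrays that did not overlap, from each list up to 4 called rises and 3 falls (its extreme members as values where none was called), up to 6 genes each way for the difference of the effects, and IKBKB, CBFA2T3 and CSF1R. Lists are described by counts and medians. Alternatives were the fit without the replicate block, the compared arrays alone, other floors (none, log2 6), robust moderation with a trend, cyclic loess, 1 probe set per gene, and leaving out each array.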

Additional observations from a re-analysis of the deposited data

Results flagged for a closer look

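For HSPA6 the effect of IKKβ(EE) was 3.68 larger on the log2 scale in CBFA2T3-depleted cells than in cells without that shRNA, by a limma test of the difference itself (adjusted p = 0.00868). For SLAMF7 the same difference was 2.76 (adjusted p = 0.0210). Both passed without the replicate block (adjusted p = 0.0180 and 0.0448), under each change of floor, with trend and robust moderation and with cyclic loess, and neither passed without shRNA replicate 1 or without shRNA replicate 2.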

How the results depend on the processing

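Probe sets called higher numbered 891 and lower 353. Without the replicate block they were 201 and 10, in the 4 compared arrays alone with the block 595 and 84, and in those arrays without it 37 and 0 (by limma, with 2905 at an unadjusted p under 0.05). With no floor 175 were called lower, and trend and robust moderation gave 1410 higher and 839 lower. A fit with 1 probe set per gene counts genes and not probe sets. It called 571 genes higher, against 459 in the main fit. With 1 array left out the count higher ranged from 157 to 1233 and lower from 2 to 817. Calls for the difference of the effects numbered 3, and 10 with no floor, 9 with a floor at log2 6, 17 with trend and robust moderation and 5 with 1 probe set per gene, from 0 (without either shRNA array, with 1512 and 1121 at an unadjusted p under 0.05) to 57 with 1 array left out. The cause of these shifts was not tested. Of the 104 named called probe sets 0 turned direction under any alternative run. That shows little, since they were chosen as called and several alternatives leave the difference itself unchanged. Of the 104, 101 passed with cyclic loess, 103 with trend and robust moderation, 94 with no floor, 86 in the compared arrays alone with the block and 14 there without it. Cyclic loess moved the share of calls that were higher from 71.6% to 80.2%. Dim genes limit the folds, since values near background understate them.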

Other observations

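Genes outside the lists, chosen after their values were seen, also rose when IKKβ(EE) was added to CBFA2T3-depleted cells. Interferon genes were among them: IFNL2, a lambda interferon, read 4.09 and 3.70 with the shRNA and 7.05 and 8.53 with both constructs (3.90 ± 0.39, limma adjusted p = 0.00299), IFNL1 rose by 2.64 ± 0.21 and IFNG by 2.85 ± 0.19 (adjusted p = 0.00109 and 0.000451). All 3 had shRNA levels close to background. The lambda interferon genes are near-identical, so their probe sets may share signal.

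Cyclin D2 (CCND2) read 3.95 and 4.27 and then 7.38 and 8.29 (3.73 ± 0.18, adjusted p = 0.000102), and cyclin D1 (CCND1), which normal B-lineage cells hardly express, rose by 2.62 ± 0.37 (adjusted p = 0.0118), while the mitosis and replication lists held no called gene. The metalloproteinases MMP7 (3.58 ± 0.52) and MMP10 (3.75 ± 0.53) and the urokinase PLAU (2.99 ± 0.27) rose, as did the metalloproteinase inhibitor TIMP1, which went from 6.59 and 7.01 to 8.76 and 9.69 (2.43 ± 0.18). MMP7 and MMP10 did not pass without the replicate block (adjusted p = 0.0881 and 0.0539). The Notch ligand JAG1 went from 6.25 and 6.94 to 8.98 and 10.20 (2.995 ± 0.20, adjusted p = 0.000460), and the gap junction gene GJA1 rose by 4.08 ± 0.40 from an shRNA level near background.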
